A study of Mus musculus with 2 samples.

Results

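Expression of 10 lipid droplet genes was followed across the cell classes of mouse liver, out of 32285 genes counted in each library. They were taken by symbol and comprised 3 perilipins (Plin2, Plin4 and Plin5), the 3 CIDE genes (Cidea, Cideb and Cidec), both FIT genes (Fitm1 and Fitm2), the lipase gene Pnpla2 and the gene of its inhibitor, G0s2. Each symbol matched 1 row in both libraries. The WT library came from liver with the genotype label CTRL. The N-LKO library came from liver plus tumor labelled NgBR KO, in which an albumin-Cre transgene removes a floxed part of Nus1, the gene for the cis-prenyltransferase subunit NgBR. The mice were on a C57BL6 background and had been fed for 16 weeks, on a diet that the titles call HFD and the treatment labels call WD. Neither age nor the number of animals behind each library was given in the labels, and genotype, tumor tissue and library cannot be told apart.

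Hepatocytes store triacylglycerol in lipid droplets, which are enclosed by a phospholipid monolayer and a coat of proteins. Perilipins sit on that coat and control the access of lipases, CIDE proteins promote the growth and fusion of droplets, and FIT proteins act in the endoplasmic reticulum where droplets bud. ATGL, the product of Pnpla2, starts lipolysis by cleaving triacylglycerol, the protein CGI-58 (Abhd5) activates it and the G0s2 protein inhibits it.

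The bases before the annotated start are shown for Plin4 and Cidec, the members with the largest N-LKO to WT ratios, and for Plin2, the perilipin found in most liver cells. They were read from RefSeq (GRCm38.p6), which held 11 start sites for 9 of the 10 genes, all but Cidea. Each run is 250 bases on the gene's own strand and ends at the base before the start, and capitals mark matches on either strand to AGGNCA, the 6-base core that nuclear receptors bind.
Plin4 (chr17:56109783-56110032, minus strand): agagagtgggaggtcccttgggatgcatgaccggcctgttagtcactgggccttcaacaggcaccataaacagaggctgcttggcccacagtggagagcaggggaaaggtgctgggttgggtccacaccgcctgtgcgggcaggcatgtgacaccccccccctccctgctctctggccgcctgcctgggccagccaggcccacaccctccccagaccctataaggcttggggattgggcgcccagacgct
Cidec (chr6:113435761-113436010, minus strand): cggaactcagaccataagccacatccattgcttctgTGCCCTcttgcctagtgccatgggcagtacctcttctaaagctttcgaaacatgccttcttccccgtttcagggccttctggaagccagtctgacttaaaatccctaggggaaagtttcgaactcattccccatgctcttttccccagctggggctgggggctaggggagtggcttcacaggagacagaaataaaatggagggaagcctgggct
Plin2 (chr4:86670060-86670309, minus strand): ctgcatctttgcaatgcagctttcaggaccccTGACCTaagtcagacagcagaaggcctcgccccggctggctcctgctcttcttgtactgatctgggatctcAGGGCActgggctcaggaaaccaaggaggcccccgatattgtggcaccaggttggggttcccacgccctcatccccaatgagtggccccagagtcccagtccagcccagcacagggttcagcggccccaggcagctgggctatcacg
The PPAR direct repeat AGGTCANAGGTCA was searched on both strands and was in none of the 11 windows, as against 0.0335% of 32851 promoters, and the looser AGGNCANAGGNCA was also in none (0.338%). The core AGGTCA was in 1 window each of Plin2 and Plin5 and in 14.0% of all promoters. The looser core AGGNCA, which contains the stricter letters, was in 6 of the 11 windows and in 51.3% of all promoters. Plin2 held it 218 and 147 bases before its start, Cidec held it 214 bases before the start shown, and Plin4 held none.

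The WT library held 18433 cells and the N-LKO library 19850 cells after filtering, with a median of 1401 UMIs (unique molecular identifiers, 1 per captured transcript) in WT cells and 1454 in N-LKO cells. The 22 clusters were named from marker genes, and 8 classes had at least 200 cells in each library. Hepatocyte-like cells numbered 9954 in the WT and 4102 in the N-LKO library. They fell into 5 clusters, each almost wholly from 1 library, so a cluster may stand for a library and not for a cell type. One of these, with 2002 N-LKO cells and 1 WT cell, was rich in the nuclear RNA Malat1, held 4201 CPM of Alb as against 16346 CPM in the N-LKO main cluster, and was led by genes such as Neat1, Pik3c2g and Prlr. The N-LKO main cluster scored 0.873 for hepatocyte markers. The Malat1-rich cluster scored 0.193, with plasmacytoid dendritic markers next at 0.142. Values are therefore given with and without it. Nus1 was at 73.0 CPM in WT, against 33.9 CPM in the N-LKO class. Of the adipocyte genes, Adipoq (0 UMIs in WT, 1 UMI in N-LKO) and Plin1 (1 UMI and 0 UMIs) were nearly absent from hepatocyte-like cells. A barcode sequence was found in both libraries for 2499 barcodes and for 122 of the cells kept.

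In hepatocyte-like cells, Plin4 and Cidec were the members with at least 2-fold more CPM (UMIs scaled to 1000000 per class and library) in N-LKO, and no member was at least 2-fold lower. Plin4 was 6.85-fold higher and Cidec 4.09-fold higher, while the other 8 members stayed within 2-fold. The count of 2 of 10 members higher stood beside 21.2% of 10592 genes tested that were called at least 2-fold higher, and 0 of 10 stood beside 2.38% that were called lower, so the share of members called higher was near the background. The median log2 ratio (N-LKO over WT) was 0.12 over the members and 0.38 over all genes tested. Ratios scaled to that median left 10.7% of genes called higher and 6.42% called lower. With 1 library per group no test across animals was possible, and every interval is a 95% interval for counting error only. Isolation, tumor content and RNA quality were not tested, and mitochondrial genes took 19.7% of UMIs in the WT class and 15.1% in the N-LKO class.

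Free RNA, transcripts from broken cells that enter every droplet, took a larger estimated share of hepatocyte-like UMIs in WT (76.2%) than in N-LKO (43.1%). Its profile was taken from barcodes under 500 UMIs. No deposited barcode held fewer than 326 UMIs in WT or 377 UMIs in N-LKO. Empty droplets and damaged cells were thus not told apart in that profile, and each comparison with free RNA carries this limit. In WT hepatocyte-like cells, Plin4, Plin5, Fitm1 and G0s2 were below the level that free RNA would give, Plin2, Cidea and Cidec were within counting error of it, and Cideb, Fitm2 and Pnpla2 were above it. In N-LKO all 10 members were above it. The shares of all genes above and below that level were not counted. The ratios given next are of levels as measured. With free RNA subtracted, the log2 ratios of Plin2 (4.71), Cidec (5.70) and Pnpla2 (1.20) passed 2-fold. So did the lower bounds of Plin4, Plin5, Cidea, Fitm1 and G0s2, while Cideb was at -0.997 and Fitm2 at -0.29. A cell cannot hold less than its free RNA, so the estimate was too high for Plin4, Plin5, Fitm1 and G0s2 in WT. Subtracted ratios can therefore overstate the difference, here and below, and their bounds hold only if the estimate does.

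The 3 perilipins differed from each other. Plin2, which coats droplets in most tissues and is stabilized by lipid, was at 306 CPM (5143 UMIs) in WT and 315 CPM (2668 UMIs) in N-LKO hepatocyte-like cells. Its log2 ratio of 0.04 had an interval from -0.03 to 0.11, so the measured levels overlapped. Plin4, a perilipin best known from adipocytes that lies on chromosome 17 (GRCm38, 56100591 to 56109803, minus strand), was at 2.74 CPM (46 UMIs) in WT and 18.8 CPM (159 UMIs) in N-LKO. The log2 ratio of Plin4 was 2.77 (2.30 to 3.28), and the libraries were far apart. Plin5, which tethers droplets to mitochondria in oxidative tissues, was at 28.6 CPM (480 UMIs) in WT and 41.2 CPM (349 UMIs) in N-LKO. That gave a log2 ratio of 0.53 (0.32 to 0.73), below 2-fold but with an interval above 0. The ratio of Plin5 was 0.15 when scaled to the median gene, 0.0036 at a mitochondrial limit of 10% and at least 6.38 with free RNA subtracted. Plin4 shares its locus with Hdgfl2 on the opposite strand.

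**Figure D1:**
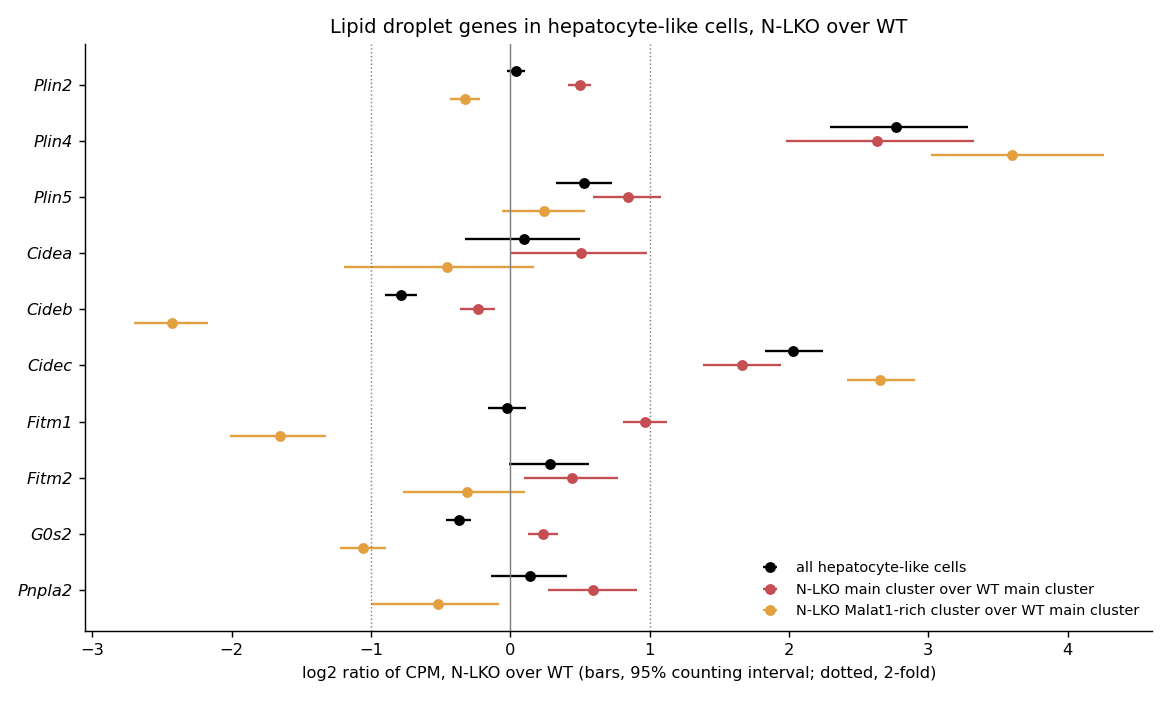
Log2 ratio of CPM (N-LKO over WT, x axis) for each of the 10 genes (y axis) in all hepatocyte-like cells (black), in the N-LKO main over the WT main cluster (red) and in the N-LKO Malat1-rich over the WT main cluster (orange), with 95% counting intervals as bars and dotted lines at 2-fold. Plin4 and Cidec lie beyond 2-fold in all 3 comparisons, whereas Fitm1 is at 0.97 in the main clusters and at -1.65 in the Malat1-rich cluster. Of all genes tested, 21.2% (black), 6.56% (red) and 42.8% (orange) were at least 2-fold higher.

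The CIDE genes split in direction. Cidec, whose product (FSP27) fuses droplets into large ones and which lies on chromosome 6 (GRCm38, 113424634 to 113435760, minus strand), was at 17.02 CPM (286 UMIs) in WT and 69.6 CPM (590 UMIs) in N-LKO hepatocyte-like cells. Its log2 ratio was 2.03 (1.83 to 2.24). Cideb, the CIDE gene of normal hepatocytes, whose product takes part in VLDL lipidation, was at 165 CPM (2779 UMIs) in WT and 96.0 CPM (814 UMIs) in N-LKO. The log2 ratio of Cideb was -0.78 (-0.90 to -0.67), and all but 4.14% of the genes tested had a higher ratio. Cidea, a brown fat gene that fatty liver can also express, was at 8.63 CPM in WT, against 9.20 CPM in N-LKO, with a log2 ratio of 0.10 (-0.32 to 0.50). Cideb overlaps Nop9 and Cidea overlaps B430212C06Rik, each on the opposite strand.

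The measured levels of the genes of droplet budding and lipolysis stayed within 2-fold in the class as a whole, but the direction of Fitm1 and G0s2 turned with the processing. Fitm1 was at 78.2 CPM (1315 UMIs) in WT and 76.9 CPM (652 UMIs) in N-LKO, with a log2 ratio of -0.02 (-0.16 to 0.11). Free RNA would give 119 CPM of Fitm1 in WT, against 15.8 CPM in N-LKO, and the ratio ran from -1.31 at a mitochondrial limit of 10% to at least 7.46 with free RNA subtracted. Fitm2 was at 16.1 CPM (271 UMIs) in WT and 19.6 CPM (166 UMIs) in N-LKO, with a log2 ratio of 0.28 (-0.01 to 0.56). The measured levels of both FIT genes thus overlapped between the libraries. Pnpla2, the triacylglycerol lipase gene, was at 19.1 CPM (321 UMIs) in WT and 21.0 CPM (178 UMIs) in N-LKO, with a log2 ratio of 0.14 (-0.14 to 0.41). G0s2, which encodes the inhibitor of that lipase, was at 202 CPM (3402 UMIs) in WT and 156 CPM (1326 UMIs) in N-LKO. Its log2 ratio of -0.37 (-0.46 to -0.28) was lower than 0 by more than counting error, at 0.773 of the WT level. The WT level of G0s2 was below that of free RNA (268 CPM), and the ratio turned to at least 8.43 with free RNA subtracted. It was 0.06 with doublets kept and 0.19 at a minimum of 500 UMIs. In these 2 settings the Malat1-rich N-LKO cluster stayed unnamed, and the class held 2152 and 2396 N-LKO cells. The part of that cluster in the turn was not tested. Fitm1, Fitm2 and G0s2 overlap genes on the opposite strand (Gm15932, 2310001K24Rik and Lamb3).

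Between the main clusters alone, the measured levels of 9 of the 10 members were higher in N-LKO. The WT main cluster held 8344 WT cells and the N-LKO main cluster 1982 N-LKO cells, with 23744 CPM and 16346 CPM of Alb. The members' median log2 ratio was 0.55, against 0.07 over the 9923 genes tested, so most genes tested were also above 0. Plin4 went from 2.07 CPM (30 UMIs) to 12.9 CPM (57 UMIs), a log2 ratio of 2.63 (1.98 to 3.33). Cidec went from 15.4 to 48.7 CPM (log2 ratio 1.66, 1.39 to 1.94). These were the 2 members past 2-fold, beside 6.56% of all genes called higher, and 0 members beside 3.19% called lower. Fitm1 came next, from 63.2 to 123 CPM, with a log2 ratio of 0.97 (0.81 to 1.12), and then Plin5, from 27.4 to 49.2 CPM (0.84, 0.60 to 1.08). Plin2 went from 279 to 395 CPM (0.50, 0.42 to 0.58) and Pnpla2 from 18.3 to 27.6 CPM (0.60, 0.27 to 0.91). Fitm2 (0.45), Cidea (0.51) and G0s2 (0.23) were higher by less, and Cideb, from 175 to 149 CPM, was the member below 0 (-0.23, -0.36 to -0.11). The response genes that cell isolation can induce summed to 438 CPM in the WT main and 793 CPM in the N-LKO main cluster, and their part in these ratios was not tested. Free RNA took an estimated 78.4% of UMIs in the WT main and 37.3% in the N-LKO main cluster. In the WT main cluster Plin2, Plin4, Plin5, Fitm1 and G0s2 were below the free RNA level, which was 3.94 CPM for Plin4, 123 CPM for Fitm1 and 275 CPM for G0s2. In the N-LKO main cluster all 10 members were above it, and the share of all genes above it was not counted.

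The N-LKO Malat1-rich cluster had another pattern. Plin4 was at 25.4 CPM (98 UMIs) and Cidec at 97.05 CPM (374 UMIs), above their levels in the N-LKO main cluster by log2 ratios of 0.97 (0.49 to 1.47) and 0.99 (0.75 to 1.24). Over all 11115 genes tested in that pair the median log2 ratio was 0.65 and 40.2% were at least 2-fold higher, so ratios of this size were common there. The other 8 members were lower there than in the N-LKO main cluster, and 4 of them at least 2-fold, beside 15.3% of all genes. Those 4 were Fitm1 (19.98 CPM), Cideb (32.4 CPM), G0s2 (87.2 CPM) and Pnpla2 (12.7 CPM). Fitm1 differed most, with a log2 ratio of -2.62 (-2.99 to -2.28) between these clusters of the same library, and Cideb followed with -2.19 (-2.49 to -1.92). The levels of Fitm1 and Cideb in the Malat1-rich cluster were close to those that free RNA would give there (18.4 and 32.0 CPM).

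WT cells also held a Malat1-rich cluster, of 317 cells, and a Malat1-poor cluster, of 1179 cells. In the WT Malat1-rich cluster Plin4 was at 15.4 CPM (10 UMIs) and Cidec at 36.9 CPM (24 UMIs). They were above the WT main cluster by log2 ratios of 2.94 (1.70 to 3.97) and 1.29 (0.59 to 1.88). Over the 10525 genes tested between these WT clusters, the median was 0.59 and 37.2% were at least 2-fold higher. Cidec was higher again in the N-LKO than in the WT Malat1-rich cluster, by 1.37 (0.80 to 2.05), while for Plin4 that ratio was 0.66 with an interval from -0.22 to 1.83. In the same pair Fitm1, G0s2, Cideb and Plin2 were lower in N-LKO, with log2 ratios of -1.67, -1.52, -0.86 and -0.65. Of the 11323 genes tested in that pair, 16.9% were at least 2-fold higher and 11.7% at least 2-fold lower. The WT Malat1-poor cluster had the highest Plin2 (516 CPM), Fitm1 (230 CPM) and G0s2 (388 CPM) of the 5 clusters, leaving out the 113 WT cells that fell into the N-LKO main cluster and held 559 CPM of Plin2, and Fitm1 was among the 10 genes that set this cluster apart. The order of the clusters thus differed between genes, with Plin4 and Cidec highest in the N-LKO Malat1-rich cluster and Cideb highest in the WT main cluster.

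**Figure D2:**
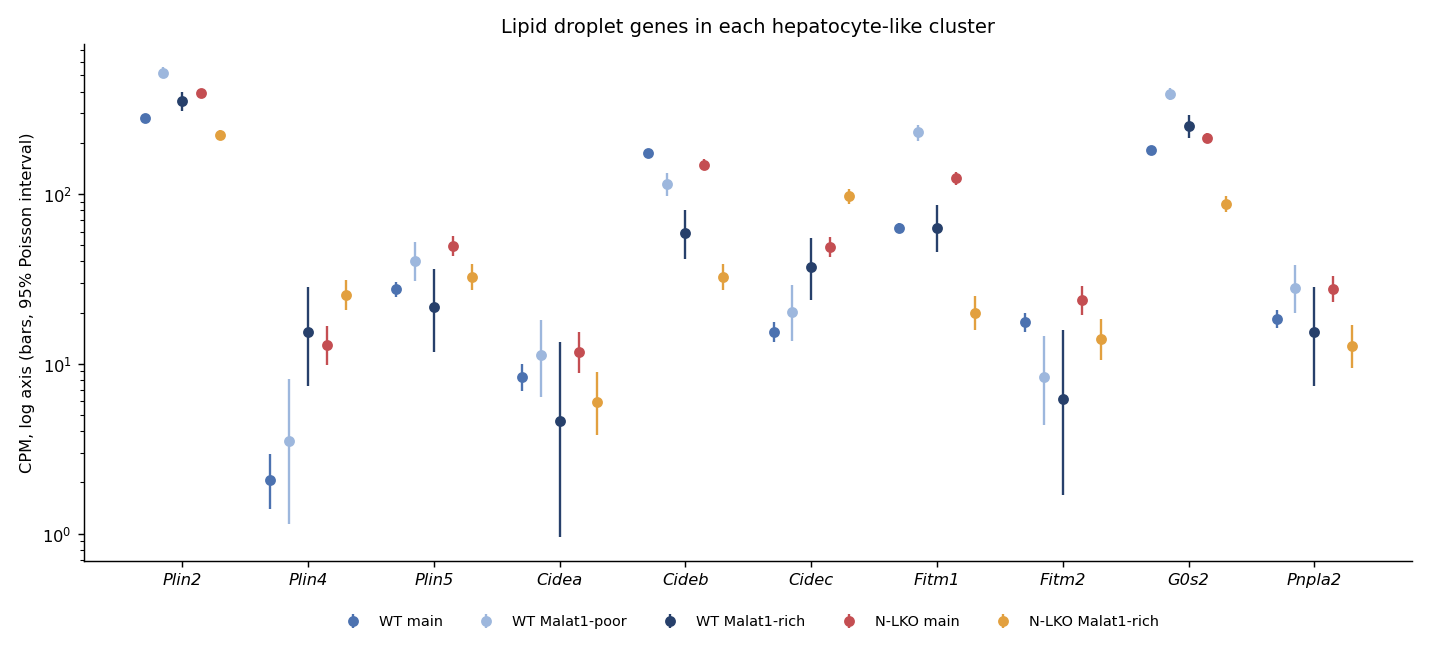
CPM of each gene (x axis) on a log axis (y axis) in the 5 hepatocyte-like clusters, with 95% Poisson intervals as bars and blue shades for WT, red and orange for N-LKO. Plin4 runs from 2.07 CPM in the WT main to 25.4 CPM in the N-LKO Malat1-rich cluster, and Fitm1 from 230 CPM in the WT Malat1-poor to 19.98 CPM in the N-LKO Malat1-rich cluster.

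Where a member stood among all genes depended on which hepatocyte-like cells were used. Over the whole class the ratio of Plin4 exceeded that of 98.0% of the genes tested, and that of Cidec exceeded 95.7%. Between the main clusters these shares were 99.1% and 97.7%. Fitm1 exceeded 28.1% of genes in the whole class and 93.0% between the main clusters, and Plin2 exceeded 31.6% and 79.6%. The ratios over all genes followed gene span, with a median log2 ratio of -0.07 in the shortest 2118 genes (median span 5164 bp) and 0.93 in the longest 2118 (136844 bp). Plin4, Plin5, Cideb, Fitm1, Fitm2, G0s2 and Pnpla2 were among these shortest genes. Set against genes of like span, Plin4 was at 2.83, Cidec at 1.91 and Plin2 at -0.29.

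**Figure D3:**
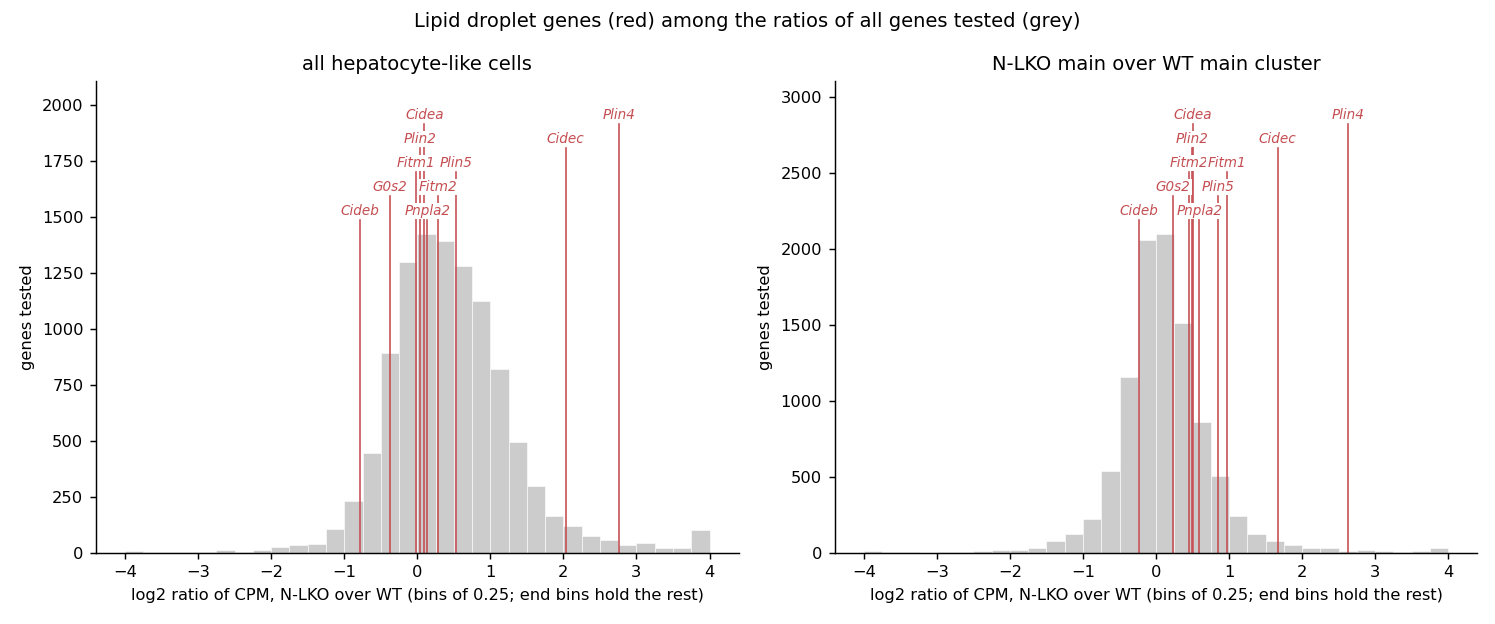
Number of genes tested (grey bars, y axis) by log2 ratio of CPM, N-LKO over WT (x axis, bins of 0.25), in all hepatocyte-like cells (left) and between the main clusters (right), with the 10 genes as red lines. The grey bars centre near 0.38 on the left and 0.07 on the right, and Plin4 and Cidec lie in the right tail of both.

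Genes of the same pathways were compared by lists. Of the other droplet coat proteins, 10 of 12 listed genes were tested in hepatocyte-like cells, none was past 2-fold in either direction, beside 21.2% of all genes called higher and 2.38% called lower, and the median log2 ratio was 0.21. Of the other lipolysis genes, 12 of 12 were tested, with a median log2 ratio of -0.36 in the class and -0.26 between the main clusters. In the class 8 had an interval below 0 and 3 an interval above 0. The shares of all genes with such intervals were not counted, so these counts have no background. At 2-fold, 0 were higher and 1 was lower, beside the same 21.2% and 2.38%. That gene, Ces1d, a carboxylesterase that hydrolyzes triacylglycerol, was at 175 CPM in WT, against 84.4 CPM in N-LKO (-1.05, -1.17 to -0.93). Abhd5, the ATGL coactivator gene, was at 20.4 and 27.6 CPM (0.44, 0.19 to 0.68) in the class. Its ratio between the main clusters was 0.11, with an interval that spanned 0 (-0.25 to 0.44). Between the main clusters, where 3.19% of all genes were called lower, Ces1d was at -0.94 and the lipolysis gene past 2-fold was Pnpla3, named after its values were seen, at 15.7 CPM in WT, against 3.85 CPM in N-LKO (-1.98, -2.83 to -1.31).

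Of the triacylglycerol synthesis genes, 10 of 12 were tested, 4 were past 2-fold higher (Gpat3, Lpin1, Lpin3 and Dgat1) and 0 lower, beside 21.2% and 2.38% of all genes, with a median of 0.61. Gpat3, which acylates glycerol 3-phosphate, was at 8.93 and 36.9 CPM (2.05, 1.76 to 2.34), and Lpin1, a phosphatidate phosphatase gene, at 75.2 and 223 CPM (1.56, 1.46 to 1.67). Between the main clusters the list's median was 0.09, Gpat3 was at 1.29 and Lpin1 at 1.40, and Dgat1, at 0.71, was below 2-fold. Lpin3 had 11 UMIs in WT and 44 UMIs in N-LKO in the class (0.65 and 5.19 CPM). Between the main clusters Lpin3 was at 0.55 and 2.72 CPM, under the 5 CPM minimum, with a log2 ratio of 2.27 (0.89 to 3.80). Dgat2, which encodes an acyltransferase of the last step, was at 212 and 163 CPM (-0.38, -0.47 to -0.29) in the class. Its ratio between the main clusters was -0.28 (-0.39 to -0.16).

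Of the 12 upstream regulators, 3 were past 2-fold higher and 2 lower, beside 21.2% and 2.38% of all genes, and the list's median was 0.62 in the class and -0.14 between the main clusters. Pparg, a nuclear receptor of fat storage, was at 21.5 CPM in WT, against 88.6 CPM in N-LKO (2.04, 1.86 to 2.23), but at 19.6 and 27.4 CPM in the main clusters (0.49, 0.17 to 0.80). Ppara, the nuclear receptor of fatty acid oxidation, had a log2 ratio of 1.43 in the class and -0.09 (-0.20 to 0.01) in the main clusters, and Foxo1, a factor held in check by insulin, 1.75 and 0.65. Srebf1, a factor of fatty acid synthesis, was lower in both, at -1.80 and -1.92, and Cebpa, a factor of hepatocyte identity, was at -1.09 and -0.72. The ratios of Ppara, Pparg and Foxo1 were thus smaller between the main clusters than in the class, while Plin4 and Cidec were past 2-fold in both.

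Several members varied along the liver lobule. Cells of each main cluster were ordered by the difference between a pericentral and a periportal marker score and divided into 3 equal groups, with 2782 WT and 661 N-LKO cells in the most pericentral. The control genes Cyp2c50 (2.39 in WT and 1.89 in N-LKO, log2 pericentral over periportal) and Hsd17b13 (-0.74 and -1.15), which the score did not use, fell on opposite sides. Hsd17b13 is itself on the list of other droplet proteins. Of the further control genes, Cyp2c37 and Cyp2c54 were above 0 and Etnppl below 0 in both libraries. Ctsc was at -0.20 in WT and spanned 0 in N-LKO (-0.23, -0.69 to 0.23). Fitm1 was at 30.8, 61.0 and 104 CPM from periportal to pericentral in WT and at 74.2, 109 and 189 CPM in N-LKO. Those are log2 ratios of 1.75 (1.49 to 2.01) and 1.35 (1.03 to 1.68). Cidec was at 9.77, 16.0 and 21.3 CPM in WT and 33.4, 51.0 and 62.2 CPM in N-LKO, and the intervals of the N-LKO periportal (24.8 to 44.1) and the WT pericentral group (17.2 to 26.0) overlapped. Cidea (2.03 and 1.20), Fitm2 (0.83 and 0.87) and Plin2 (0.33 and 0.76) were also more pericentral in both libraries, with intervals above 0. Plin4 was too, at 3.20 and 1.68, but on 2 UMIs in the WT periportal cells. The intervals of Cideb, Plin5 and Pnpla2 reached both sides of 0 in both libraries, and G0s2 was above 0 in N-LKO (0.28, 0.05 to 0.50) but not in WT (-0.03, -0.16 to 0.11). These cells came from 1 library per group, and differences between the libraries in these ratios were not tested.

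**Figure D4:**
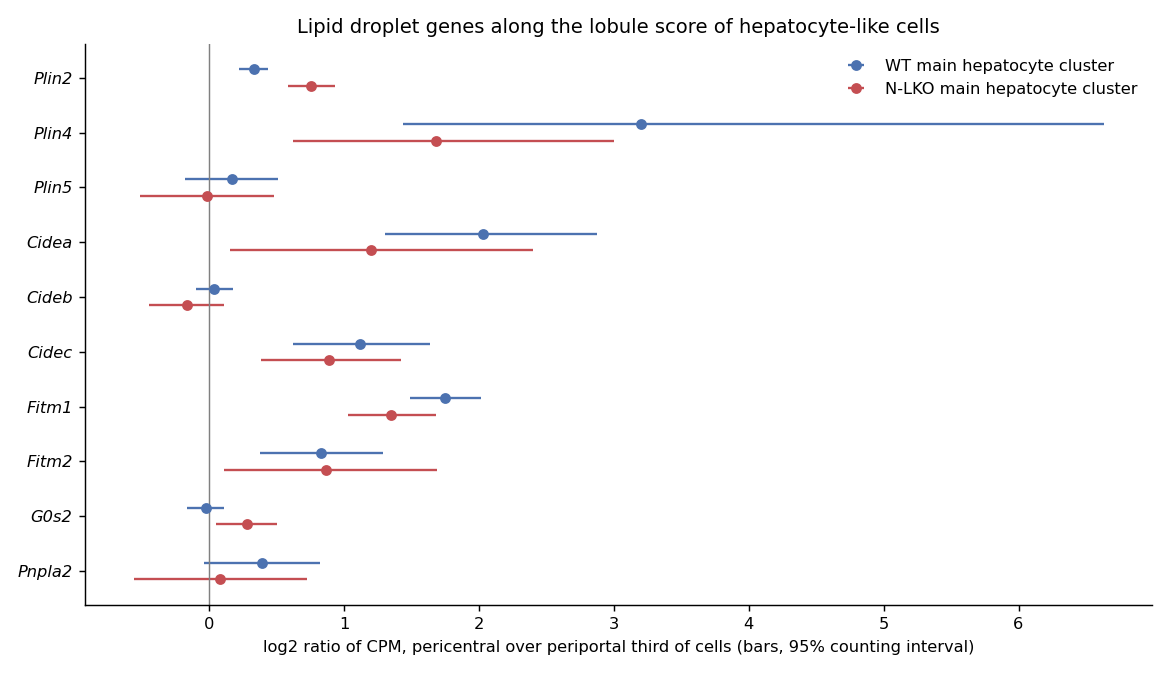
Log2 ratio of CPM, pericentral over periportal cells (x axis), for each gene (y axis) in the WT (blue) and N-LKO (red) main hepatocyte clusters, with 95% counting intervals. Plin2, Plin4, Cidea, Cidec, Fitm1 and Fitm2 lie above 0 in both libraries, whereas Cideb, Plin5 and Pnpla2 span 0 in both.

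The counts of the other 7 classes also had to be read against free RNA, whose estimated share there was 24.2% to 47.3% of the UMIs. The free RNA profile held 351 CPM of G0s2 in WT and 86.2 CPM in N-LKO, 157 and 36.7 CPM of Fitm1, 125 and 63.9 CPM of Cideb, and 21.8 and 64.1 CPM of Cidec. The order of the libraries in these 4 genes was the same in non-hepatocyte classes. G0s2, for example, was lower in N-LKO in all 8 classes, and Cidec was higher in all 8, each with an interval that left out 0.

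**Figure D5:**
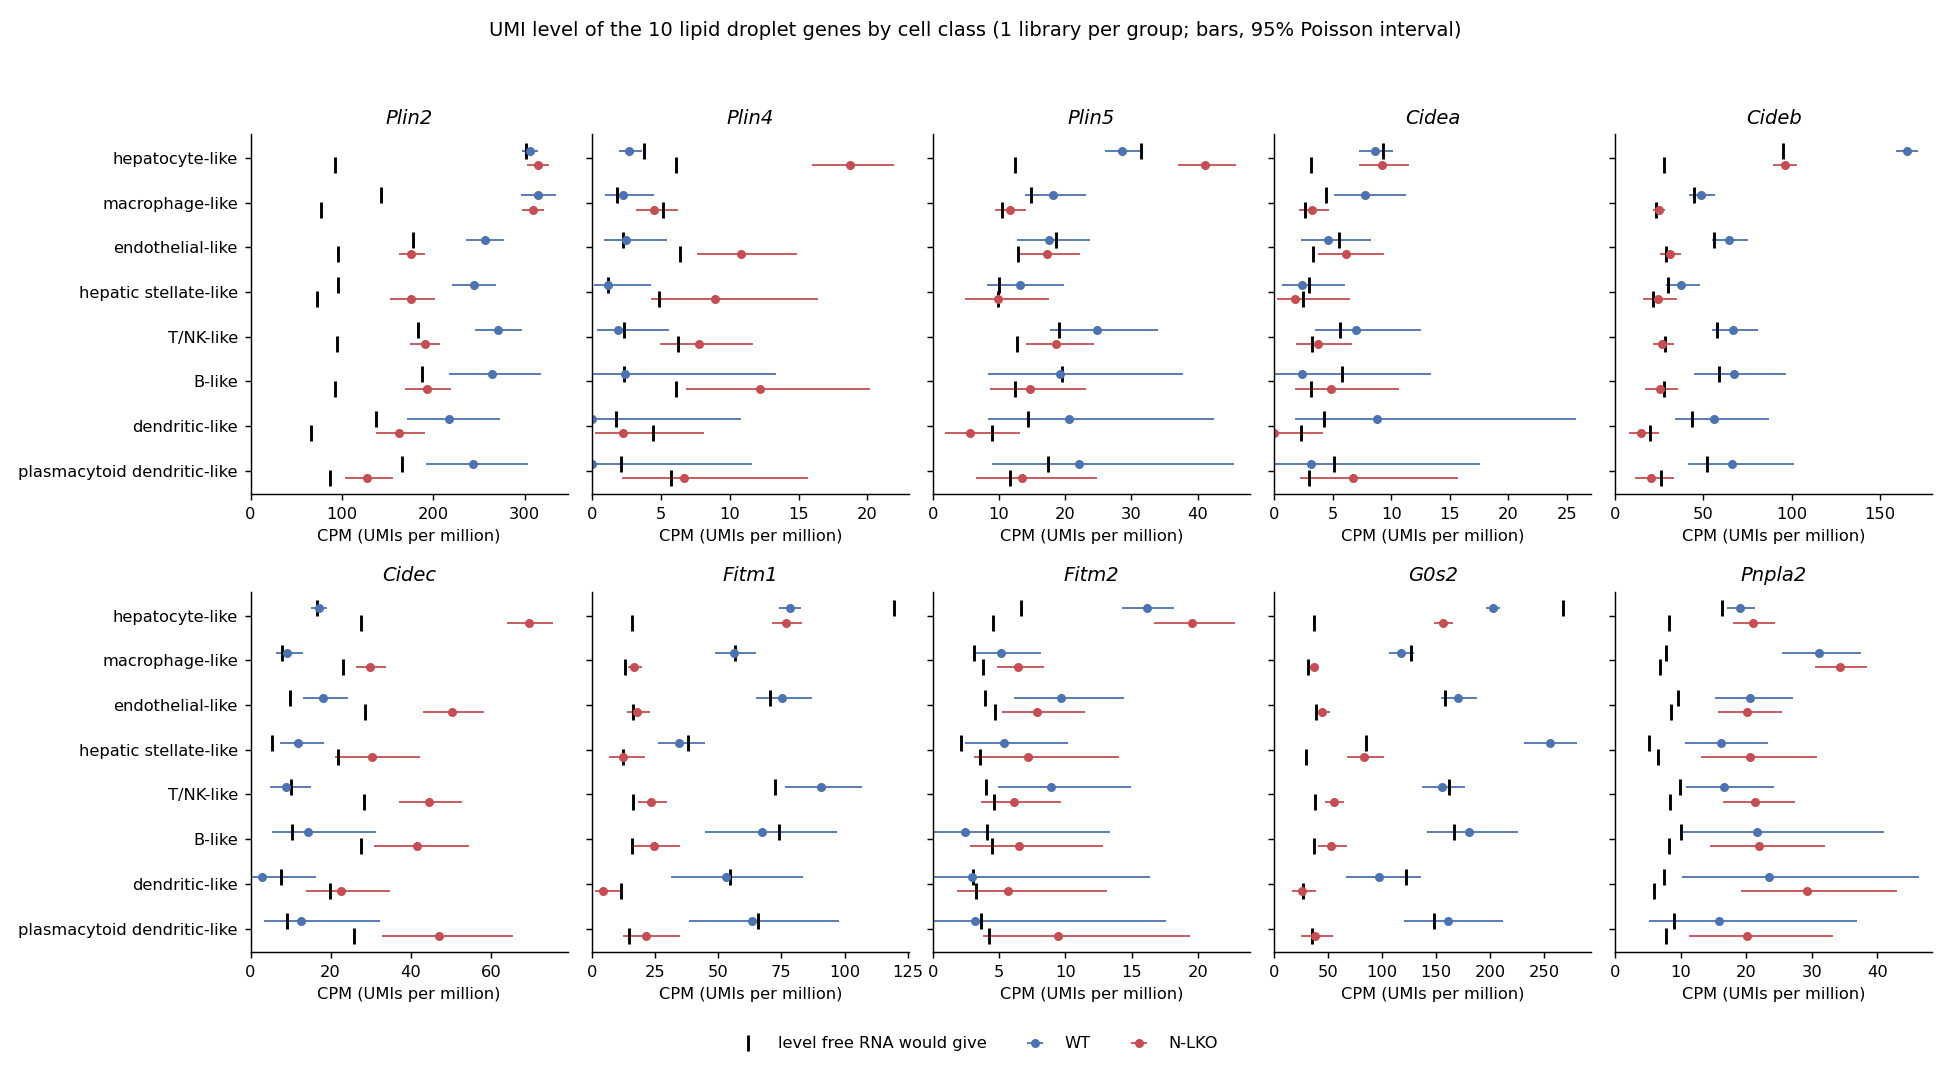
CPM (x axes, starting at 0) of the 10 genes, 1 panel each, in the 8 cell classes (y axis) of the WT (blue) and N-LKO (red) libraries, with 95% Poisson intervals and, as black ticks, the level that free RNA would give. Outside hepatocyte-like cells most points for Cideb and Fitm1 lie at their ticks, while Plin2, Pnpla2 and, in hepatic stellate-like cells, G0s2 lie to the right of them.

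Plin2 and Pnpla2 were above the free RNA level in most classes. Plin2 exceeded it in 7 of 8 classes in WT and 8 of 8 in N-LKO, and the exception was the WT hepatocyte-like class itself. Macrophage-like cells, at 315 CPM in WT, against 309 CPM in N-LKO, did not differ from hepatocyte-like cells of the same library beyond counting error. In N-LKO they stood above each of the other 6 classes, and in WT their interval overlapped those of T/NK-like, B-like and plasmacytoid dendritic-like cells. Pnpla2 exceeded the free RNA level in 6 classes in WT and 8 in N-LKO and was highest in macrophage-like cells, at 31.0 CPM (108 UMIs) in WT and 34.3 CPM (287 UMIs) in N-LKO. The next class, dendritic-like cells, overlapped that level in both libraries. No class had a Pnpla2 ratio whose interval left out 0.

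In macrophage-like cells, 1 of 9 members tested was called at least 2-fold higher, Cidec, beside 4.38% of 10946 genes. The 3 called lower, beside 5.81%, were Fitm1 (-1.74), G0s2 (-1.67) and Cidea (-1.27). Each of the 3 was within counting error of the free RNA level in 1 library, Fitm1 and G0s2 in WT and Cidea in N-LKO. With free RNA subtracted Fitm1 turned to at least 2.05 and G0s2 to at least 2.80, and Cidea was at -2.58. Plin2 was at 325 CPM in WT, against 351 CPM in N-LKO in the Kupffer cell cluster, the resident macrophages of liver, a log2 ratio of 0.11 (-0.01 to 0.24). In the monocyte and macrophage cluster it was at 291 and 212 CPM, a ratio of -0.46 (-0.67 to -0.24).

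Hepatic stellate-like cells, the retinoid-storing cells of liver, held G0s2 at 255 CPM (428 UMIs) in WT and 83.1 CPM (93 UMIs) in N-LKO. Free RNA would give 84.9 and 29.3 CPM there, so both levels were above it, and the log2 ratio was -1.61 (-1.96 to -1.29). In WT this class had the highest G0s2 of the 8, and in N-LKO hepatocyte-like cells did. After free RNA was subtracted the ratio was -1.47. In these cells 2 of 9 members tested were called higher (Plin4 and Cidec, beside 10.5% of 12160 genes) and 2 lower (Fitm1 and G0s2, beside 7.99%). Plin4 had 2 UMIs in WT and 10 UMIs in N-LKO.

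In the other classes the called members were largely the same genes. Plin4 and Cidec were called higher and Cideb, Fitm1 and G0s2 lower in endothelial-like cells, beside 11.8% of genes called higher and 7.38% lower. T/NK-like cells had the same 2 and 3 members beside 12.0% and 8.11%, and B-like cells beside 13.3% and 11.9%. Plasmacytoid dendritic-like cells added Fitm2, at 1 UMI in WT and 7 UMIs in N-LKO, beside 13.2% and 14.0%. In dendritic-like cells Cidec was called higher beside 12.8%, and Plin5, Cidea, Cideb, Fitm1 and G0s2 lower beside 12.1%. Cidec exceeded the free RNA level in 6 of 8 classes in N-LKO, with 50.2 CPM in endothelial-like cells where free RNA would give 28.6 CPM. Plin4 exceeded it in 3 of 8 classes in N-LKO and in none in WT. T/NK-like cells, which should lack Cidec, held 44.5 CPM in N-LKO, and their 28.2 CPM from free RNA is an estimate from hepatocyte genes.

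The share of cells with a UMI was compared after every cell was thinned to 1000 UMIs. Among hepatocyte-like cells, 0.261% (WT) and 1.78% (N-LKO) held a Plin4 UMI, while 0.0843% and 0.781% of T/NK-like cells did. For Cidec the shares were 1.85% and 6.29% against 0.759% and 4.22%, and for Plin2 26.4% and 24.5% against 23.7% and 15.9%. Without thinning, Plin4 was found in 0.452% and 3.66% and Cidec in 2.78% and 11.9% and Plin2 in 38.6% and 39.9% of hepatocyte-like cells, whose median depth was 1520 UMIs in WT and 1776 UMIs in N-LKO, as against 1191 and 1357 in T/NK-like cells.

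The genes whose levels followed each member most closely were ranked by Pearson correlation of log2(CPM + 1) over 16 points, the 8 classes in each library, among 10065 genes. The points share libraries, free RNA and depth, and the values are descriptions. Cideb was nearest to Hamp, Apoc4 and Serpina1d (r = 0.98 for each), which are genes of secreted hepatocyte proteins. Cidec was nearest to Lcn2, Saa1 and Arhgef26 (0.94), of which the former pair encode acute phase proteins. Fitm1 was nearest to Acadm, Rtp3 and Fah (0.96 to 0.97), G0s2 to Selenbp1, Acaa2 and Ndrg2 (0.94 to 0.96), and Plin5 to Aldh1a7, Mthfd1 and Ftcd (0.92 to 0.95). Plin2 was nearest to Prdx1 (0.93), Msrb1 and Serf1, and Pnpla2 to Gas2l3 (0.81), St18 and Fnip2.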

How the data were processed

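Droplet-based 3′ single-cell libraries were made from dissociated liver, 1 per group. Parenchymal and nonparenchymal cells were mixed in equal parts for WT, with tumor cells added for N-LKO. The authors counted UMIs with Cell Ranger (7.1.0 per the file headers), and the deposited values are raw whole-number counts for each gene and barcode. The submitters' processing notes name mm9, while gene positions here are GRCm38 from GENCODE vM21. Whether intronic reads were counted was not given in the sources used here.

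Cells were kept at 1000 or more UMIs, 400 or more genes and at most 30% mitochondrial UMIs, and those with a Scrublet score over 0.25 (8.56% in WT, 10.6% in N-LKO) were removed. Both libraries were clustered together with scanpy 1.11.5 and leidenalg 0.10.2 on 2000 variable genes without the 10 members, 30 principal components and a resolution of 0.3, and clusters were named from marker lists (score of at least 0.15, set after seeing the data so that the Malat1-rich N-LKO cluster was named, and at least 3 markers raised 2-fold). Such names are rebuilt and may differ from those of the study. Of 22 clusters, 19 were named and 3 were mixed.

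UMIs were summed per class and library and scaled to 1000000 (CPM). Levels carry exact Poisson, ratios exact conditional binomial and shares Clopper-Pearson intervals, at 95%. They cover counting error only. Log2 ratios had 0.5 UMI added to each sum, a call meant 2-fold or more, and genes were tested at 5 CPM or more in at least 1 library. The free RNA share was estimated from hepatocyte genes in other classes, and from genes of other cells in hepatocyte-like cells. The interval code was tested on simulated data. The members, lists and settings were chosen with earlier results of these data known. Named genes were all members in every class of at least 200 cells per library and every hepatocyte-like cluster of at least 100 cells, pathway genes with at least 20 CPM and a ratio of at least 2, with Dgat2, Abhd5 and Pparg, adipocyte markers, and the 3 genes most like each member. In all 17 alternatives were tried, of which 3 were added after seeing the data.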

Additional observations from a re-analysis of the deposited data

Results flagged for a closer look

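Plin5 was the member whose ratio lay on opposite sides of 0 in 2 classes by more than counting error. Its log2 ratio (N-LKO over WT) was 0.53 in hepatocyte-like cells and -0.65 in macrophage-like cells, and that difference was not tested, since there was 1 library per group. In macrophage-like cells Plin5 was at 18.1 CPM in WT, against 11.6 CPM in N-LKO, where free RNA would give 14.9 and 10.4 CPM, so its level there was not above free RNA in either library. In hepatocyte-like cells its level was below free RNA in WT (31.4 CPM) and above it in N-LKO (12.4 CPM), and its ratio there was 0.0036 at a mitochondrial limit of 10%.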

How the results depend on the processing

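Plin4 and Cidec kept a log2 ratio of at least 1 in hepatocyte-like cells under all 17 alternatives. The ratio was 1.95 or more for Plin4 and 1.41 or more for Cidec. Under all alternatives but 1, 2 members were called higher, beside 5.45% to 29.8% of all genes. With free RNA subtracted, 8 members were called higher in hepatocyte-like cells, beside 37.9% of 10685 genes. The median log2 ratio over all 10 members was 4.95 with 5 of them at a lower bound, against 0.63 over all genes. The free share was at 76.2% of WT and 43.1% of N-LKO UMIs in this class. Subtraction left 0 UMIs of Plin4, Plin5, Cidea, Fitm1 and G0s2 in WT. The ratios of these 5 are thus lower bounds from 3 UMIs per class, and only if the free share holds. Measured Plin4, Plin5, Fitm1 and G0s2 lay below the free RNA level in WT, so that estimate was too high for them. The free profile of that library held 396 CPM of Plin2 and its hepatocyte-like cells 306 CPM, and own and free transcripts cannot be told apart there. The same step gave 3 members called higher in macrophage-like cells, beside 5.57% of genes, and 1 in hepatic stellate-like cells, beside 15.9%. In macrophage-like cells Fitm1 turned to 2.05 and G0s2 to 2.80 (lower bounds). At a mitochondrial limit of 10%, which left 676 WT and 719 N-LKO hepatocyte-like cells, 2 members were called lower, beside 9.76% of genes. They were Fitm1 (-1.31) and G0s2 (-1.17), and Plin2 was at -0.65. Scaling to the median gene called 1 member lower, Cideb (-1.16), beside 6.42% of genes. Keeping doublets called 2 members higher in macrophage-like cells, beside 5.81% of genes, and thinning called 1 in hepatic stellate-like cells, beside 11.3%. The causes were not tested.

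Without the Malat1-rich N-LKO cluster, an alternative chosen after seeing the data, the members' median log2 ratio was 0.57, Fitm1 was at 0.67 and Cideb at -0.15, while 5.45% of genes were called higher and 3.22% lower. That cluster also stayed unnamed when doublets were kept or the UMI minimum was 500. Leaving out the cells whose barcode was in both libraries moved none of the 50 results by more than counting error. No paired analysis was possible because each group had 1 library. At this depth Plin4 in WT rested on 46 UMIs in hepatocyte-like cells and on 0 to 8 UMIs in each other class.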
